A study of Mus musculus with 2 samples.

Results

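Translation initiation factor genes were described in CH12.LX, a mouse line grown from a B cell lymphoma, immortalized and of strain B10.H-2aH-4bp/Wts. The set holds the protein-coding autosomal genes, and the X-linked Eif2s3x, whose mouse symbol begins with Eif. This gave 53 genes of 43346 Ensembl gene entries, of which 21474 are protein coding. The rule left out the X-linked Eif1ax, at 109 TPM in replicate 1 and 98.6 TPM in replicate 2, and the Y-linked Eif2s3y, at 63.7 and 50.5 TPM. The labels give the line as female, yet reads were assigned to the Y-linked Eif2s3y. How much of its sequence is unique was not computed, and the sex of the line was not tested. TPM is a level corrected for gene length and scaled to the same total in each library.

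Polyadenylated RNA was sequenced in 2 libraries that the labels call biological replicates 1 and 2 of separate biosamples. No treatment or second line is named, so both libraries form 1 group. They held 22996547 and 25715408 expected counts, which are estimated read counts per gene. All 6 B cell markers examined were at 1 TPM or more in both libraries and summed to 1272 and 1393 TPM. Of 8 markers of other blood cells 0 reached 1 TPM in both libraries, and they summed to 1.95 and 2.66 TPM. Cd4 was the highest of these 8, at 0.86 TPM in replicate 1 and 1.18 TPM in replicate 2, and Hbb-bs and Klrb1c were at 0.

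Initiation brings the small ribosomal subunit to the start codon of an mRNA. The factor eIF2 carries the initiator tRNA, eIF3 holds the small subunit and its partners together, and the eIF4 factors bind the cap, unwind the leader and bridge to the poly(A) tail. Then eIF5 and eIF5B release eIF2 and join the large subunit. Cells commonly control this sequence at eIF2, through kinases that phosphorylate it, and at eIF4E, through binding proteins that release it when mTOR is active.

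As a group the factors were abundant. In bulk RNA, fewer cells with a transcript and less of it per cell cannot be told apart. Of the 53 genes, 51 (96.2%) stood at 1 TPM or more in both libraries, against 10317 of 21474 protein-coding genes (48.0%). At 100 TPM or more in both libraries stood 32 of them (60.4%), against 1333 protein-coding genes (6.21%). The median level was 158 TPM for the factors and 0.77 TPM for all protein-coding genes. The factors took 13933 TPM in replicate 1 and 13214 TPM in replicate 2, and the 5 highest genes held 41.3% and 41.2% of that. The 16 genes whose symbol begins with Eif4 summed to 4556 ± 85.0 TPM (SD, n = 2), and the 4 beginning with Eif5 to 2767 ± 184 TPM. The 14 eIF3 genes summed to 3801 ± 146 TPM and the 3 eIF2 subunit genes to 476 ± 18.8 TPM. The eIF4 and eIF5 sums go by symbol and are not levels of a single complex. The eIF4 sum includes Eif4a3 at 438 TPM and the eIF4E-binding genes at 307 TPM. In the eIF5 sum, Eif5a and Eif5a2 made up 2519 TPM.

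**Figure D1:**
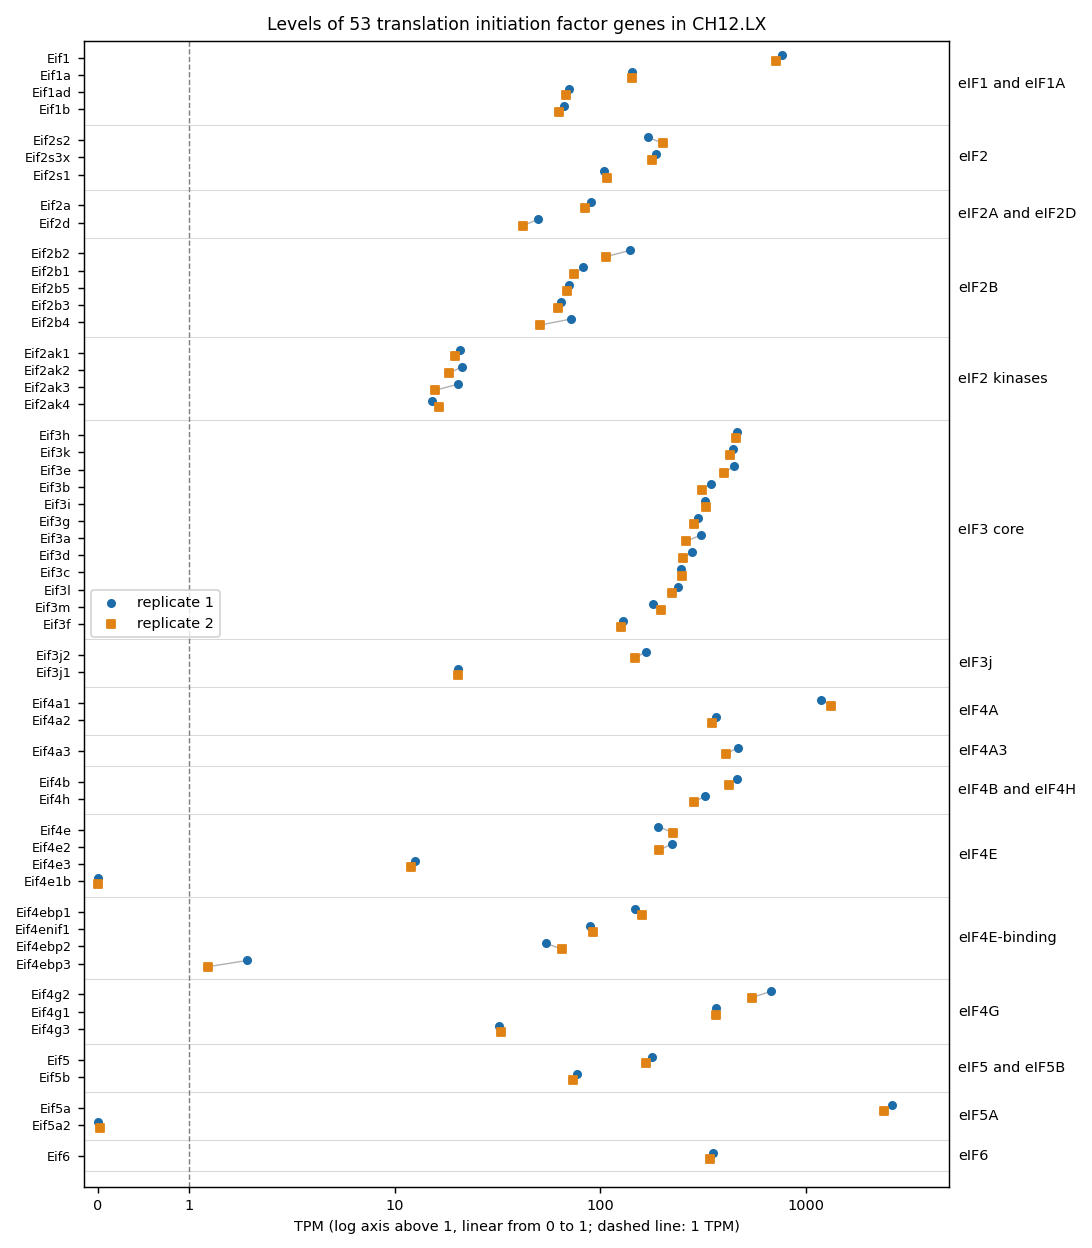
TPM of the 53 genes in replicate 1 (circles) and replicate 2 (squares), grouped by factor, on an axis that is logarithmic above 1 TPM and linear below. Eif5a leads at 2642 and 2396 TPM, and Eif4e1b and Eif5a2 are the genes left of the dashed line at 1 TPM.

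The gene pair that most needs its sequence shown is Eif4a1, which encodes the main helicase of the cap complex, and the processed pseudogene Eif4a-ps4. Eif4a1 lies on the minus strand at chr11:69666936-69672423 and Eif4a-ps4 on the plus strand at chr1:60703932-60705149 (GRCm38, GENCODE M21). Over the 1218 bases of the pseudogene the coding sequence of the leading transcript Eif4a1-213 differs at 1 base, written G534A, with Eif4a1's base given first and positions counted from the A of the ATG. The 80 bases around it are shown 5′ to 3′, with that base in capitals, from exon 6 of Eif4a1 at chr11:69668674-69668753 (minus strand) and from Eif4a-ps4 at chr1:60704446-60704525 (plus strand).
Eif4a1: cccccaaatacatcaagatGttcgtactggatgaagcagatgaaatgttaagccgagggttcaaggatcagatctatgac
Eif4a-ps4: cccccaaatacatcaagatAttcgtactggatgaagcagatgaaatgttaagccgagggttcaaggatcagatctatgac

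The read length implied by the tables is 41 bases, and of the pseudogene's 1178 stretches of that length 1137 (96.5%) also occur in Eif4a1. The pseudogene was nevertheless assigned 15554 counts in replicate 1 and 6182 counts in replicate 2, or 806 and 288 TPM. Eif4a1 itself had 33153 and 40988 counts. The pseudogene thus took 31.9% of the pair's 48707 counts in replicate 1 and 13.1% of the pair's 47170 in replicate 2, with Wilson 95% intervals of 31.5% to 32.3% and 12.8% to 13.4% that cover counting error only. Whether these reads came from the pseudogene or from Eif4a1 was not tested, and each Eif4a1 value below is given by the deposited assignment unless the pair is named. Near copies or overlapping genes touch other factors as well, and 15 of the 53 genes had under 90% of their 41-base stretches to themselves. Eif2s3x shares 34.7% with the processed pseudogene Gm2223, listed at 3.72 and 1.07 TPM. Eif1ad shares 15.4% with Banf1, Eif5b 14.8% with Rev1, and Eif3d 21.2% with the antisense gene Gm17638, and since no strand of counting is stated, reads on such overlaps cannot be told apart. These 4 neighbours were named after their values were seen.

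**Figure D2:**
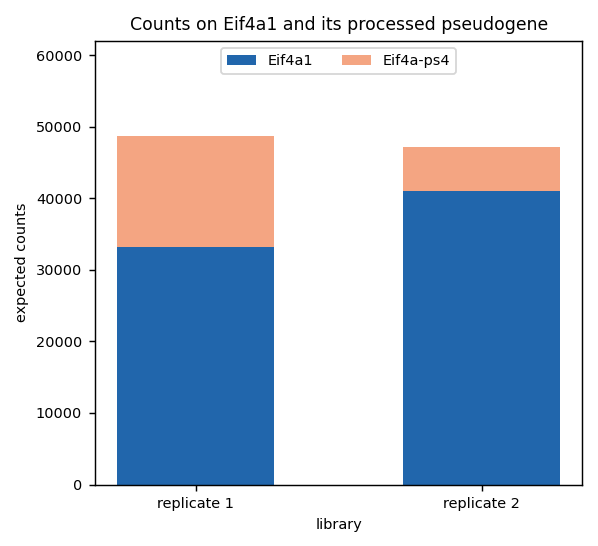
Expected counts on Eif4a1 (lower part of each bar) and on its processed pseudogene Eif4a-ps4 (upper part) in each library. The sums, not scaled for library size, are 48707 and 47170, and the pseudogene's part is 15554 in replicate 1 and 6182 in replicate 2. Against library size the pair together was higher in replicate 1, at a log2 ratio of 0.18.

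The 4 genes of the set whose symbol begins with Eif1 were led by Eif1, which guards start codon choice, at 770 TPM in replicate 1 and 714 TPM in replicate 2. Its paralog Eif1b stood at 66.5 and 62.9 TPM, so Eif1 held 92.0 ± 0.098% of the pair's TPM (SD, n = 2). Eif1a, which works beside Eif1 on the small subunit, was at 144 and 143 TPM, and Eif1ad was at 70.5 and 68.2 TPM. These 4 genes kept the same order in both libraries, with no overlap between neighbours.

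The 3 subunits of eIF2 were not equal in level. The gamma subunit gene Eif2s3x was at 188 and 180 TPM, the beta subunit gene Eif2s2 at 171 and 202 TPM, and the alpha subunit gene Eif2s1, whose product the stress kinases phosphorylate, at 104 and 108 TPM. Eif2s2 and Eif2s3x changed places between the libraries, whereas Eif2s1 was lowest in both. Eif2s2 shares 10.9% of its 41-base stretches with the processed pseudogene Gm9892, which was listed at 140 TPM in both libraries. Gm9892 was named after its values were seen.

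The exchange factor eIF2B, which reloads eIF2 with GTP, was lower than its substrate. The median of its 5 subunit genes was 72.5 TPM in replicate 1 and 69.0 TPM in replicate 2, against 171 and 180 TPM for the eIF2 subunits. By gene TPM Eif2b2 was highest at 140 and 107 TPM, followed by Eif2b1 at 82.5 and 74.9 TPM. On protein-coding transcripts alone this order turned, with Eif2b2 at 50.9 and 50.1 TPM and Eif2b1 at 59.2 and 62.4 TPM. By that measure Eif2b5, at 70.3 and 69.0 TPM, was above both. Eif2b3, at 62.84 and 58.45 TPM, was above Eif2b2 in both libraries. Eif2b5, which carries the catalytic activity, was at 70.3 and 69.0 TPM, Eif2b3 at 64.5 and 62.5 TPM, and Eif2b4 at 72.5 and 50.8 TPM. By gene TPM Eif2b3 and Eif2b4 overlapped between libraries, and the other neighbours did not.

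All 4 eIF2 kinases were detected, at levels low for the set, whose median was 158 TPM. Their means, from 15.8 to 20.2 TPM, lay below but near the median of 21.0 TPM for detected protein-coding genes. Eif2ak1, the heme-regulated kinase, was at 20.8 and 19.6 TPM. Eif2ak2, which senses double-stranded RNA and is known as PKR, was at 21.2 and 18.4 TPM. Eif2ak3, the endoplasmic reticulum stress kinase PERK, was at 20.4 and 15.7 TPM, and Eif2ak4, the amino acid sensor GCN2, was at 15.2 and 16.4 TPM. All 3 neighbouring pairs in the order of mean level overlapped, while by gene TPM Eif2ak1 and Eif2ak2 both lay above Eif2ak4 in each library. On protein-coding transcripts alone Eif2ak3 was the lowest of the 4, at 13.3 and 11.9 TPM. By that measure Eif2ak2, at 16.8 and 15.2 TPM, and Eif2ak4, at 15.2 and 16.4 TPM, changed places between libraries. Of the factors that can deliver tRNA without eIF2, Eif2a was at 90.8 and 84.4 TPM and Eif2d at 49.8 and 42.1 TPM. On protein-coding transcripts alone this order turned, with Eif2a at 34.4 and 31.3 TPM and Eif2d at 48.4 and 39.8 TPM.

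The core of eIF3, with 12 genes, is the largest assembly among the factors. Eif3h was highest at 466 TPM in replicate 1 and 460 TPM in replicate 2, and Eif3f, at chr7:108934417-108942951 on the plus strand, was lowest at 130 and 127 TPM. The highest level was 3.59 times the lowest in replicate 1 and 3.63 times in replicate 2, and 11 of the 12 genes lay within 2-fold of the median in each library. Eif3f is the exception.

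Between these ends the genes followed in the order Eif3k, Eif3e, Eif3b, Eif3i, Eif3g, Eif3a, Eif3d, Eif3c, Eif3l and Eif3m. Eif3k stood at 445 and 427 TPM, and Eif3e at 447 and 401 TPM. Eif3a and Eif3b, the scaffold subunits, stood at 310 and 261 TPM and at 348 and 312 TPM. Eif3m, next above Eif3f, was at 182 and 197 TPM. Of the 11 neighbouring pairs 4 overlapped between libraries, namely Eif3k with Eif3e, Eif3b with Eif3i, Eif3g with Eif3a, and Eif3a with Eif3d.

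The loosely bound subunit eIF3j has a pair of genes in the mouse. Eif3j2 was at 167 and 148 TPM and Eif3j1 at 20.4 TPM in both libraries, giving Eif3j2 88.5 ± 0.88% of the pair's TPM (SD, n = 2). By expected counts, with no length correction, Eif3j2 held 78.1%. Of the 41-base stretches of Eif3j2, 92.2% also occur in Eif3j1 and only 6.58% occur in no other gene, so the split between them rests on few distinguishing bases.

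The cap complex was led by its helicase. Eif4a1 was at 1192 TPM in replicate 1 and 1326 TPM in replicate 2, and its paralog Eif4a2 at 368 and 350 TPM. Eif4a1 held 77.8 ± 1.9% of the pair's TPM (SD, n = 2), and 83.3% with the pseudogene's TPM added to it. Counted on protein-coding transcripts alone, its share was 91.0%. Eif4a3, a related helicase that belongs to the exon junction complex and not to the cap complex, was at 468 and 409 TPM. The helicase helpers Eif4b and Eif4h were at 465 and 423 TPM and at 325 and 288 TPM.

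The cap-binding proteins were divided between paralogs. Eif4e, the cap-binding subunit of the initiation complex, was at 192 TPM in replicate 1 and 227 TPM in replicate 2. Eif4e2, a cap-binding protein known as a repressor of translation, was at 224 and 194 TPM. Thus Eif4e2 was the higher of these in replicate 1 and Eif4e in replicate 2, and the TPM do not set their order. By expected counts Eif4e held 64.8% of the family in replicate 1 and 71.0% in replicate 2, with Wilson intervals of 64.0% to 65.6% and 70.3% to 71.7%. Counts are not corrected for length, and the effective length was 2842 bases for Eif4e against 1186 and 1207 for Eif4e2. The count shares therefore do not set the order either. Eif4e3 was at 12.6 and 12.0 TPM. Eif4e1b, known as an oocyte form, had 0 counts in each library, and 3 counts would have been 0.196 TPM in replicate 1 and 0.177 TPM in replicate 2.

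Among the proteins that bind eIF4E, Eif4ebp1 was at 148 and 160 TPM, Eif4ebp2 at 54.6 and 65.6 TPM and Eif4ebp3 at 1.92 and 1.24 TPM. Their sum was 1.07 times the level of Eif4e in replicate 1 and 1.00 times in replicate 2. These are mRNA levels, and neither protein amount nor phosphorylation was measured. Eif4ebp3 rests on 22 and 16 counts and shares 65.9% of its 41-base stretches with the overlapping gene Ankhd1. Eif4enif1, the transporter that carries eIF4E into the nucleus, was at 89.3 and 92.3 TPM.

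The scaffold family was led by Eif4g2, known as DAP5, which lacks the eIF4E-binding part of its relatives. It was at 678 TPM in replicate 1 and 548 TPM in replicate 2, against 365 and 367 TPM for Eif4g1 and 32.3 and 32.8 TPM for Eif4g3. By expected counts the order of the leading pair was reversed, with Eif4g1 at 49.5% of the family in replicate 1 and 48.6% in replicate 2 and Eif4g2 at 45.0% and 46.2%. The Wilson 95% intervals were 49.1% to 49.9% and 48.3% to 49.0% for Eif4g1, and 44.6% to 45.4% and 45.8% to 46.6% for Eif4g2. Counts are not corrected for length, and the effective length was 4860 and 4957 bases for Eif4g1 against 2377 and 3154 for Eif4g2. These intervals, which cover counting error only, therefore do not set the order of the genes. In Eif4g2 the transcript Eif4g2-203, 742 bases long, held 34.3% of the TPM in replicate 1 and 23.4% in replicate 2. That transcript rests on 2672 and 1637 counts of the gene's 26409 and 31462.

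**Figure D3:**
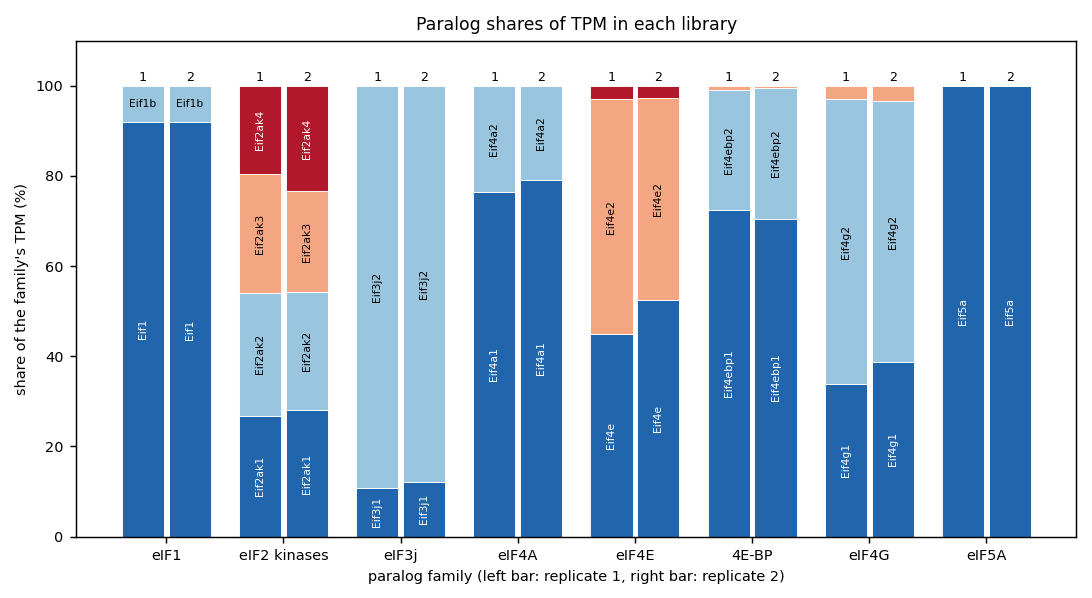
Share of each paralog family's TPM held by each gene, with replicate 1 as the left bar and replicate 2 as the right bar. Eif1, Eif3j2, Eif4a1 and Eif5a hold most of their families in both libraries, while Eif4e and Eif4e2 change places.

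Of the late-acting factors, Eif5, which triggers GTP hydrolysis on eIF2, was at 179 and 168 TPM, and Eif5b, the subunit-joining GTPase, at 76.9 and 73.6 TPM. Eif6, which keeps the ribosomal subunits apart, was at 354 and 344 TPM. Eif5a, at chr11:69916714-69921958 on the minus strand, encodes the hypusine-bearing factor that helps the ribosome through difficult peptide bonds, and it was the most abundant gene of the set. It reached 2642 TPM in replicate 1 and 2396 TPM in replicate 2, ranking 26 among all protein-coding genes by mean level. Its paralog Eif5a2 had 0 and 2 counts, where 3 counts would be 0.0367 and 0.0330 TPM, and was not detectable at this depth.

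Genes that act beside or after initiation were mostly detected too. Of 8 elongation genes 7 were detected, with Eef1a1 at 9347 and 9121 TPM and the paralog Eef1a2 at 0. Of 4 termination and recycling genes 3 were detected, as were all 5 cap and poly(A) partners, all 17 regulators and both mitochondrial initiation factors. Pabpc1, the poly(A)-binding protein that contacts eIF4G, was at 2664 and 3017 TPM. Mtor, the kinase that acts on the 4E-BPs, was at 18.7 and 21.4 TPM, and Larp1, which binds mRNAs that start with a pyrimidine tract, was at 172 and 209 TPM.

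Promoter windows from RefSeq (GRCm38.p6), running from 250 bases before each annotated start to 50 after it, were matched for 41 of the 53 genes. The palindrome CACGTG, an E-box that MYC and related factors can bind, occurred in 10 of the 41 (24.4%), against 8.09% of all 27025 genes with a window. A start at C followed by 4 pyrimidines, the form of a terminal oligopyrimidine mRNA, occurred in 2 of the 41 (4.88%), against 3.01% of all genes. No binding was measured, and a match in letters is a description only. The E-box windows of 2 abundant genes and of the undetected Eif5a2 are shown 5′ to 3′ with CACGTG in capitals, from chr11:69672575-69672644 (minus strand), chr16:20672641-20672710 (plus strand) and chr3:28781115-28781184 (plus strand).
Eif4a1: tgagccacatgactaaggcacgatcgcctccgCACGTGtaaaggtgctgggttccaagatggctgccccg
Eif4g1: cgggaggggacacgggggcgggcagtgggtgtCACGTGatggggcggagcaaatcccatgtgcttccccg
Eif5a2: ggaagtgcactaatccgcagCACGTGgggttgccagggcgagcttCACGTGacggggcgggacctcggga

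Eif5a2 thus holds 2 copies of the motif, and Eif5a, its abundant paralog, also holds it. The windows of Eif4g1 and Eif4e hold 2 copies as well. Those of Eif4g1 lie at -54 and 15 bases from the annotated start, and the stretch shown leaves out the latter. Whether the motif bears on level was not tested. The pyrimidine starts are shown with the run in capitals from the annotated start, for Eif3f at chr7:108934385-108934434 (plus strand) and Eif2s3x at chrX:94212632-94212681 (minus strand).
Eif3f: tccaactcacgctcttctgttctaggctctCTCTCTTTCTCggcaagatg
Eif2s3x: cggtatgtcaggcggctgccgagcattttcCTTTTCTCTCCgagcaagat

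The deposited transcript table splits each gene's level over its isoforms. The same transcript led in both libraries for 46 of the 51 detected genes, and protein-coding transcripts led for 47 by the mean of the libraries. In 36 genes protein-coding transcripts held over 90% of the TPM in both libraries. In 7 genes they held under 50% in at least 1 library, namely Eif1, Eif2a, Eif2b2, Eif2b4, Eif4a2, Eif5b and Eif6.

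Eif5b stood low in both libraries, with 17.5% of its TPM on protein-coding transcripts in replicate 1 and 25.3% in replicate 2. Its leading transcript, Eif5b-202, is annotated as a retained intron and held 5973 and 5759 counts. In Eif2a the leading transcript Eif2a-207, annotated for nonsense-mediated decay, held 60.4% and 59.2%. In Eif2b2 the transcript Eif2b2-206, a retained intron of 338 bases, led in replicate 1 with 406 counts and was just below Eif2b2-201 in replicate 2 with 260 counts, and protein-coding transcripts held 73.2% and 79.6% of the gene's counts. For Eif2b4, 6 of the 9 transcripts in the tables have no match in GENCODE M21, so its split is not interpreted.

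**Figure D4:**
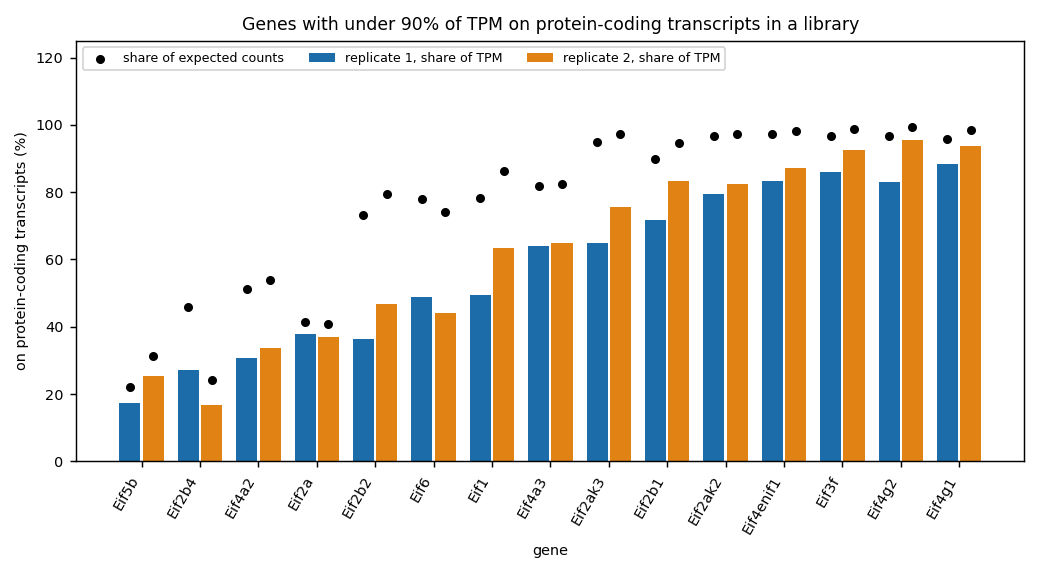
Percent of each gene's TPM on protein-coding transcripts (bars, replicate 1 left and replicate 2 right) and percent of its expected counts (points), for the 15 genes under 90% of TPM in a library. Eif5b, Eif2a and Eif2b4 stay below 50% by both measures, while Eif1, Eif2b2 and Eif6 lie above 70% by counts. For Eif2b4, 6 of 9 transcripts have no match in GENCODE M21 and are not counted as protein coding.

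In 5 genes an isoform's share moved between the libraries by over 20 percentage points. The transcript Eif2s2-201 held 97.2% of its gene in replicate 1 and 60.7% in replicate 2, where Eif2s2-205 took 37.1%. In Eif4g3 the transcript Eif4g3-202 held 76.3% and 40.8%. In Eif5a the transcript Eif5a-210 held 58.6% and 79.8%. The other genes with such a shift were Eif2ak4 and Eif2b4.

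Replicate 1 was compared with replicate 2 by a two-sided exact binomial test of the counts, with Benjamini-Hochberg adjustment over 15340 genes. This test compares the libraries and holds counting error only. It called 4692 genes (30.6%) and 26 of the 51 factor genes tested, 15 higher and 11 lower in replicate 1. Where the 2 counts averaged 500 or more, 26 of 50 factor genes (52.0%) and 3308 of 7050 genes in all (46.9%) were called. Both shares are over genes past that floor, and depth was not matched beyond it. Their differences were small, with a median absolute log2 ratio of 0.09 against 0.11 for all such genes, and 47 of 50 (94.0%) lay within 0.25, against 5903 of 7050 (83.7%). With edgeR's negative binomial exact test, at a biological coefficient of variation of 19.8% estimated from the same libraries, 0 factor genes were called and 0 had an unadjusted p under 0.05, against 389 genes called in all (2.54%).

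The largest called ratio was that of Eif2b4, with 1371 counts in replicate 1 and 1200 in replicate 2 and a log2 ratio of 0.33 (replicate 1 over replicate 2). Eif2d followed at 0.24 and Eif3a at 0.23, the last with 26123 and 24418 counts and an adjusted p of 2.03e-72 by the exact binomial test. In the other direction stood Eif4ebp2 at -0.28, with 1562 and 2086 counts, Eif4e at -0.26, with 8950 and 11771 counts, and Eif2s2 at -0.22. Eif5a, with 50321 and 55318 counts, was not called, at a log2 ratio of 0.00027.

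The direction for Eif4a1 depended on its pseudogene. Eif4a1 alone was lower in replicate 1, with a log2 ratio of -0.17 and an adjusted p of 4.40e-55 by the exact binomial test, while Eif4a-ps4 was higher at 1.47. The counts of the pair together were higher in replicate 1, with a log2 ratio of 0.18 and an adjusted p of 6.13e-84 by the same exact test. Gm7327, a processed pseudogene named after its values were seen, shares 7.88% of the 41-base stretches of Eif4e and had 781 and 377 counts. With it added, Eif4e kept its direction at -0.18, and Eif2s2 kept its direction at -0.17 with Gm9892 added.

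Levels and counts pointed in opposite directions for 9 of the 51 genes, of which Eif1 and Eif4g2 were called. The share over all genes was not computed, so whether 9 of 51 is unusual cannot be told. Some of these ratios lay near 0, such as those of Eif4g3, at -0.023 by TPM and 0.003 by counts. Eif4g2 had a log2 TPM ratio of 0.31 and a log2 count ratio of -0.12, and its deposited effective length was 2377 bases in replicate 1 and 3154 bases in replicate 2. Eif1 had a log2 TPM ratio of 0.11 and a log2 count ratio of -0.13, with effective lengths of 801 and 933 bases. TPM divides counts by effective length, so in both genes the shorter effective length goes with the higher TPM by construction.

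**Figure D5:**
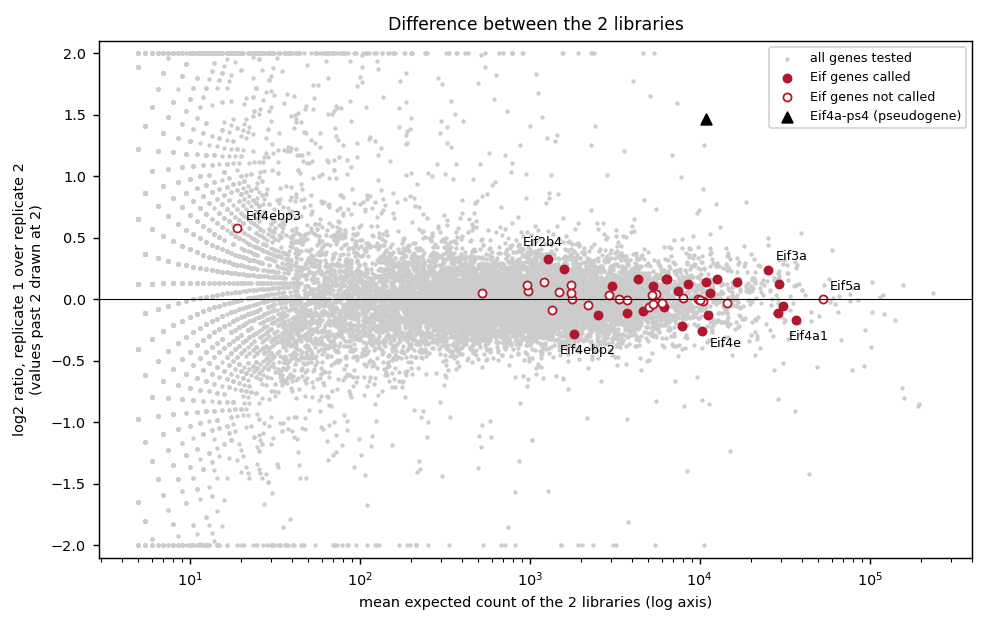
Log2 ratio of replicate 1 over replicate 2 against the mean expected count (log axis) for all genes tested (grey), factor genes called (filled) and not called (open) by the exact binomial test, and the pseudogene Eif4a-ps4 (triangle). Of the 50 factor genes averaging 500 counts or more 47 (94.0%) lie within 0.25 of 0, against 83.7% of all genes at that depth or more, while Eif4a-ps4 lies at 1.47.

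The counts of calls in the pathway list around the factors stand beside 30.6% of all genes called, and 46.9% of those averaging 500 counts or more. There the same exact binomial test called 4 of the 7 elongation genes tested, all higher in replicate 1, led by Eef1b2 at a log2 ratio of 0.43. It called both Etf1 and Gspt1 of 3 termination and recycling genes, lower in replicate 1 at -0.15 and -0.22. Of the 17 regulators 5 were higher and 6 lower, among them Mtor at -0.24 and Larp1 at -0.30. Of the 5 cap and poly(A) partners 2 were higher and 1 lower, with Pabpc1 at -0.39. Neither mitochondrial factor was called. Mitochondrial genes held 2.02% (replicate 1) and 3.04% (replicate 2) of all counts, and their part in these differences was not tested.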

How the data were processed

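Expression was read from the deposited gene and transcript tables of 2 libraries, made by the authors on mm10 with GENCODE M4, per the deposited notes. Which aligner and quantifier were used, and whether counting used strand, is not given in the sources used here. Per the file headers the deposited values are expected counts (estimated reads, need not be whole), TPM and FPKM (scaled by the authors to length and depth), each isoform's percent of its gene, and posterior mean counts and TPM with the posterior standard deviation of the counts, treated as a signal per the file headers. Because TPM shares 1 total, a gain by abundant transcripts lowers all others.

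Symbols and coordinates came from GENCODE M21 (GRCm38, the same assembly), matched by Ensembl identifier for 42462 of 43346 entries. The genes and lists were chosen with earlier results of these data known. Every gene the set's rule finds could be named, with the genes it leaves out and the pathway list. Detection meant 1 TPM or more in both libraries, and levels are mean ± SD. Genes with at least 10 counts over both libraries were tested on rounded expected counts against TMM effective library sizes (edgeR 4.0.16), called at an adjusted p under 0.05. The test was tested on simulated data. Floors used 3 counts and cover counting error only, since reads are not independent molecules. Stretches of 41 bases, the annotated length minus effective length plus 1, were counted over annotated transcripts. Alternatives were DESeq2 1.42.0 size factors, plain totals, no filter, posterior means, other level thresholds, FPKM and rescaled TPM, and either library alone.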

Additional observations from a re-analysis of the deposited data

How the results depend on the processing

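The spread rests on 2 libraries of 1 group, and counting depth limits Eif4ebp3, Eif4e1b and Eif5a2. No paired analysis was possible because the labels give 1 group with no second condition. The number of factor genes detected stayed at 50 or 51 under every threshold, unit and single library tried, and the number led by a protein-coding transcript at 46 or 47. Of 51 genes tested, the exact binomial test called 25 to 28 under other library sizes, no filter, posterior means or near copies added (the last chosen after seeing the data), and edgeR's negative binomial exact test called 0. With Eif4a-ps4 added, the log2 ratio of Eif4a1 turned to 0.18, against -0.17 alone. Calls on Eif2s1, Eif2b2, Eif2ak2 and Eif5a depended on the library sizes or the filter. Plain library totals made 59.5% of all calls higher in replicate 1, against 52.1%.

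The leading gene of each family was set by mean TPM, and Eif2ak1 and Eif4e did not lead in replicate 1. By expected counts, which are not corrected for length, the family share of this gene was 91.9% for Eif1, 29.7% for Eif2ak1, 78.1% for Eif3j2, 67.9% for Eif4e, 57.9% for Eif4ebp1, 45.6% for Eif4g2, where Eif4g1 leads by counts, and 99.998% for Eif5a. On protein-coding transcripts alone, also chosen after seeing the data, it was 86.4% for Eif1, 31.2% for Eif2ak1 and 91.0% for Eif4a1, the eIF4 sum was 3947 TPM and the highest core eIF3 gene was 4.04 times the lowest. With Eif4a-ps4 added, the Eif4a1 share was 83.3% and the eIF4 sum 5103 TPM. Posterior mean TPM summed to 448 for eIF2, 3574 for eIF3 and 4303 for eIF4. In FPKM, another scale, the sums were 338 for eIF2, 2700.1 for eIF3, 3237 for eIF4 and 1966 for eIF5. Rescaled to nuclear protein-coding genes they were 646, 5149, 6175 and 3748 TPM in that order. Leaving out either library gave shares of 91.9% to 92.0% for Eif1, 26.8% to 28.0% for Eif2ak1, 87.9% to 89.1% for Eif3j2, 76.4% to 79.1% for Eif4a1, 44.8% to 52.4% for Eif4e, 70.6% to 72.4% for Eif4ebp1 and 57.8% to 63.1% for Eif4g2.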
